A study of Mus musculus with 40 samples.

Results

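The p53 target genes described here are 36 mouse genes that p53 is known to switch on or that act beside it in the DNA damage response. They were listed by name. A gene was represented by the transcript cluster, the array's unit for all probes of 1 transcript locus, that carried its symbol alone and had the highest mean signal over the 40 arrays. This gave 35 measured genes out of 36155 genes with a cluster of their own. Sesn2 was found only in a cluster shared with another symbol and was not analysed. A short noncoding cluster that also carried the symbol Fas was not used.

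The samples were jejuna, the middle segment of the small intestine, of female mice aged 10 to 12 weeks on the C57BL/6N background (backcrossed more than 10 generations). Sftpd-/- mice (KO) lack surfactant protein D, a secreted lectin of innate immunity, in the whole body, and their Sftpd+/+ littermates served as wild-type (WT). Each mouse received 1 injection into the peritoneum of either doxorubicin (20 mg/kg), a topoisomerase II poison that breaks DNA, or isotonic saline, and was killed on day 3 or day 7. The 8 groups of 5 mice are written WT-NaCl3, KO-NaCl3, WT-NaCl7 and KO-NaCl7 for saline, and WT-Dox3, KO-Dox3, WT-Dox7 and KO-Dox7 for doxorubicin, with 1 array per mouse. The study asked whether surfactant protein D alters intestinal toxicity of the drug. Whole tissue was measured, so fewer cells of a type and less RNA per cell cannot be told apart.

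p53, encoded by Trp53 in the mouse, is a transcription factor that is held at a low level by the ubiquitin ligase Mdm2. After DNA damage, kinases such as ATM and CHK2 free it from Mdm2, and it binds a DNA element made of paired half-sites and activates genes for cell cycle arrest, apoptosis, DNA repair and its own restraint. In the small intestine, p53 is known to respond to genotoxic injury mainly in the dividing cells of the crypts.

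Signals are given as log2 values, in which 1 unit stands for 2-fold. The 23 background probe sets of the array had a mean log2 signal of 3.45 and a highest of 6.99. All 4 saline group means were under 6.99 for 17 of the 35 genes, and all 8 group means for 9 of them (Eda2r, Phlda3, Gdf15, Aen, Rrm2b, Xpc, Triap1, Fdxr and Trp73), so changes of these genes may be larger than measured. Array medians lay between 4.38 and 4.66, and arrays of 1 group correlated at 0.9748 to 0.9946 across all clusters. Sftpd itself was near background in both genotypes (KO 3.85 to 4.31, WT 3.83 to 4.24, change 0.05 ± 0.04 SE, adjusted p = 0.489), so the array gave no check of the genotype labels. The means of 8 enterocyte marker genes were high in every mouse (18.26 to 18.99), with differences between groups given with the other markers, and those of 4 pancreatic genes were between 3.64 and 4.28.

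The DNA element that p53 binds is shown first, for the genes whose start region holds one. RefSeq promoter windows (GRCm38.p6, 250 bases before to 50 after each annotated start) were given for 28 of the 36 genes, as 37 windows. The p53 half-site (10 bases: purines, then C, A or T at both middle positions and G, then pyrimidines, the same on both strands) was found without a mismatch in 13 of the 37 windows (35.1%), against 8.36% of all 32851 windows. A full p53 element (20 bases, adjoining half-sites, both CNNG cores intact, up to 3 mismatches elsewhere) was found in 9 of the 37 windows (24.3%), against 1.38% of all windows. With at most 1 mismatch it was found in 3 of the 37 (8.11%) and in 0.067% of all. The genes were listed for their known link to p53, so these higher shares describe the list and are not a test. The same site of Aen lies in more than 1 window and is counted in each, for both motifs. Both motifs overlap, since an element is a pair of half-sites. With mismatches allowed, an element need not hold a half-site without a mismatch, and that of Trp73 holds none. The 20-base elements of the 8 genes that held one follow, read 5′ to 3′ on the strand of the gene, with the CNNG cores in capitals.
Ccng1: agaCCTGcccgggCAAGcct
Cdkn1a: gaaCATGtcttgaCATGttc
Gtse1: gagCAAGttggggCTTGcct
Ckap2: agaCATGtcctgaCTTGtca
Aen: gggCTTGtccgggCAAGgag
Trp53: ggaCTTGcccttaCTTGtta
Sesn1: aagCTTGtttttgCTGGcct
Trp73: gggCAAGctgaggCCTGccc
The element of Ccng1 (chr11:40755462-40755481, minus strand) began 195 bases before the annotated start, that of Cdkn1a (chr17:29090928-29090947, plus strand) 51 bases and that of Gtse1 (chr15:85859945-85859964, plus strand) 1 base before it, and these are the 3 with at most 1 mismatch. Those of Ckap2 (chr8:22186003-22186022, minus) and Trp53 (chr11:69580284-69580303, plus) began 203 and 75 bases before the start. Like Cdkn1a and Gtse1, the genes Aen, Sesn1 and Trp73 have more than 1 annotated start, and the distance of each is from the start whose window holds the element. Their elements began 121 bases (Aen, chr7:78895937-78895956, plus), 173 bases (Sesn1, chr10:41887266-41887285, plus) and 66 bases (Trp73, chr4:154097220-154097239, minus) before 1 of them. For Sesn1 and Trp73 that start lies inside the gene, far downstream of the first one, where no element was found. A match is a description of these letters and not a measured binding site. No window was given for Gml, Trp53inp1, Zmat3, Tnfrsf10b, Perp, Rrm2b, Ddb2 and Xpc.

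The surroundings of the element are printed for Ccng1 and Cdkn1a, the gene with the largest change at day 3 averaged over genotypes and a classical p53 target, as the 250 bases before the annotated start with the element in capitals. The Ccng1 stretch is chr11:40755287-40755536 on the minus strand and the Cdkn1a stretch chr17:29090729-29090978 on the plus strand.
Ccng1 upstream: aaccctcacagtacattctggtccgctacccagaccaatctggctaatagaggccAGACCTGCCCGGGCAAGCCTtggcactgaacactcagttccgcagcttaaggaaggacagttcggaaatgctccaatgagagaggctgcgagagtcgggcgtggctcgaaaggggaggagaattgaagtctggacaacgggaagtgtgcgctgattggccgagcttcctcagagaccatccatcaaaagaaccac
Cdkn1a upstream: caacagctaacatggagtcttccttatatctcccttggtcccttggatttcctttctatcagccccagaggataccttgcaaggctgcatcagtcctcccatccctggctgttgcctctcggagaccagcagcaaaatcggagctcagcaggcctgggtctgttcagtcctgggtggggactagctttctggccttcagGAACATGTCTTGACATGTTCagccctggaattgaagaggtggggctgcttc

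At day 3 after doxorubicin, many of the p53 target genes were raised in both genotypes, led by Ccng1, Gml, Plk2, Eda2r, Gtse1 and Psrc1. In WT mice 17 of the 35 rose significantly, where 2.6% of all 65956 clusters were called higher, and 2 fell, where 2.13% of all were called lower. KO mice had 23 genes that rose (5.66% of all clusters) and 2 that fell (3.68%). The median log2 change of the 35 genes was 0.45 in WT and 0.62 in KO, and that of all clusters was 0 and -0.04. All 17 genes that rose in WT were among the 23 of KO (100% of the WT genes and 73.9% of the KO genes). Cdkn1a, Plk3, Gdf15, Tnfrsf10b, Dcxr and Trp53 passed the test in KO alone, but no test of a difference between genotypes passed for any of them. Groups did not overlap, every doxorubicin mouse above every saline mouse, for 13 genes in WT (2.15% of all clusters) and 19 in KO (4.9%), and Sesn1 and Gadd45a lay below every saline mouse in both (1.87% and 3.1%). Called here means an adjusted p under 0.05 in limma, adjusted over all 65956 clusters. In either direction, 19 genes passed in WT (4.72% of all clusters) and 25 in KO (9.34%). When each test was run on the groups compared alone, 10 genes in place of 19 passed in WT, and the methods' test called 10 in WT and 16 in place of 25 in KO, with the folds the same. Both lost Mdm2, Gml, Trp53inp1, Phlda3, Ercc5, Ppm1d, Ckap2 and Gadd45a in WT. Ei24 was lost there in the groups alone and Mdm4 by the methods' test. In KO the methods' test lost Cdkn1a, Mdm2, Mdm4, Gml, Tnfrsf10b, Dcxr, Trp53, Ppm1d and Gadd45a. The KO groups alone lost Cdkn1a, Dcxr and Ppm1d.

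**Figure D1:**
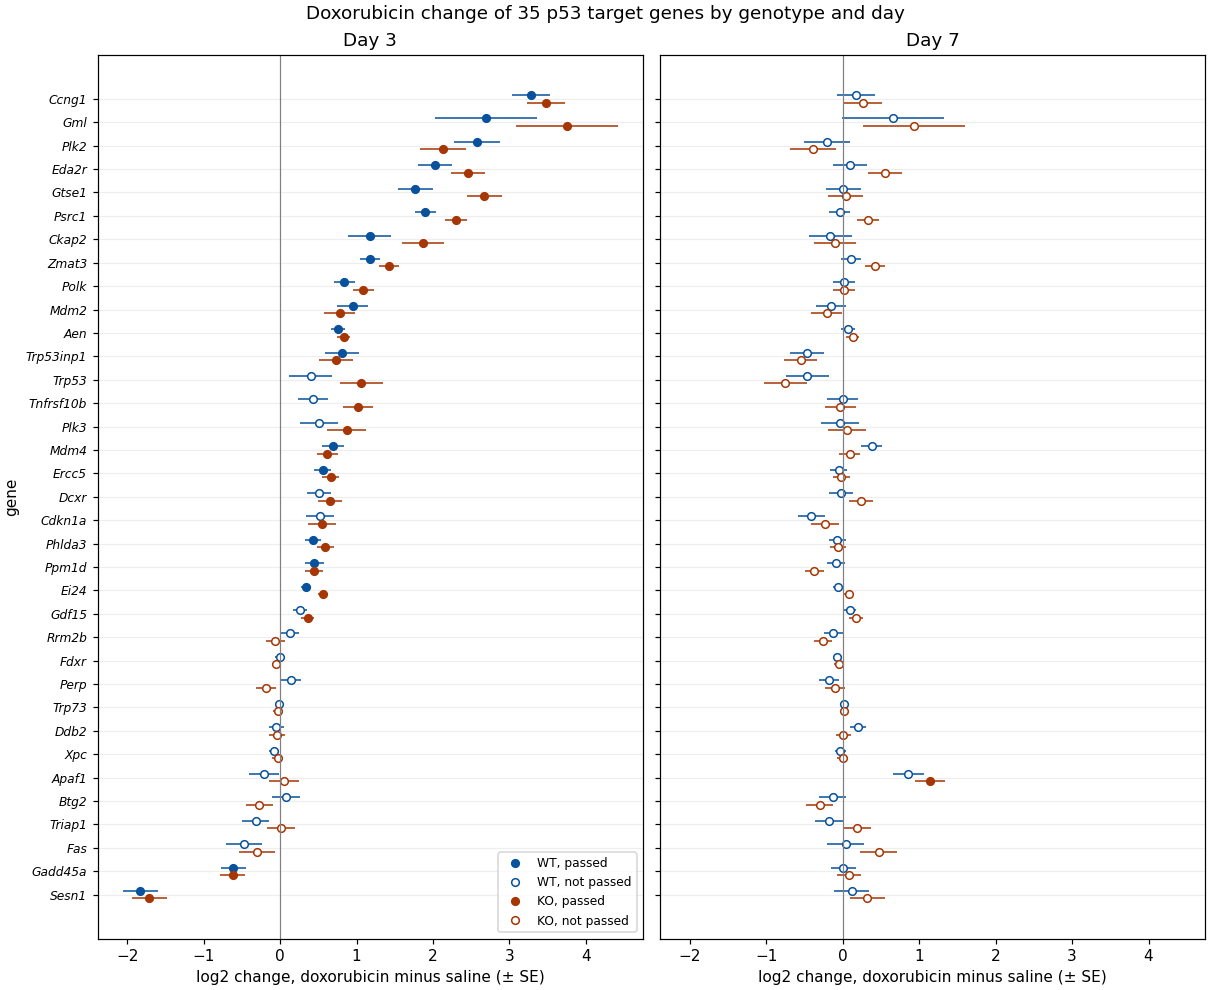
Log2 change after doxorubicin (x axis, doxorubicin minus saline, bars are SE, 5 mice per group) of 35 p53 target genes (y axis, ordered by the mean change at day 3) in WT (blue) and KO (brown), at day 3 on the left and day 7 on the right. Filled points passed the test. At day 3, 17 genes in WT and 23 in KO lay above 0 and passed, and at day 7 the only filled point is Apaf1 in KO.

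Among p53 and the genes of its feedback, Ccng1, Mdm2, Mdm4 and Ppm1d rose in both genotypes. Ccng1 (chr11:40748552-40755311 on GRCm38), which encodes cyclin G1, a partner of protein phosphatase 2A that acts on Mdm2, had the largest change of the 35 genes averaged over genotypes. Its log2 signals were 11.88, 11.98, 12.16, 12.38 and 12.59 in WT-NaCl3 and 15.24, 15.26, 15.54, 15.63 and 15.72 in WT-Dox3. In KO-NaCl3 they were 11.79, 12.35, 12.35, 12.57 and 12.67, and in KO-Dox3 15.22, 15.92, 15.93, 15.99 and 16.08. The groups were more than 2 log2 units apart in both genotypes, with mouse 196 the lowest of KO-Dox3. Ccng1 rose 9.71-fold in WT (log2 change 3.28 ± 0.25 SE, adjusted p = 9.38e-11) and 11.2-fold in KO (3.48 ± 0.25, adjusted p = 8.43e-12).

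Mdm2 (chr10:117688875-117710758), the ligase that marks p53 for degradation, is itself a p53 target. It read 9.1, 9.29, 9.44, 9.52 and 9.59 in WT-NaCl3 and 9.58, 10.19, 10.48, 10.49 and 10.97 in WT-Dox3. KO-NaCl3 mice had 9.35, 9.59, 9.79, 9.82 and 9.92, and KO-Dox3 mice 9.8, 10.35, 10.67, 10.71 and 10.82. The lowest doxorubicin mouse of each genotype lay within the saline range. The rise was 1.94-fold in WT (0.95 ± 0.2, adjusted p = 0.00225) and 1.71-fold in KO (0.78 ± 0.2, adjusted p = 0.00744). The WT call was lost in the groups compared alone (adjusted p = 0.0597) and by the methods' test (0.161), and the KO call by the methods' test (0.0838). Mdm4, the Mdm2 relative that binds and blocks p53, rose by 0.69 in WT and 0.62 in KO without overlap of the groups, and Ppm1d, the phosphatase Wip1 that reverses damage signalling, by 0.45 and 0.44, on the log2 scale. By the methods' test the calls were lost for Mdm4 (adjusted p = 0.0775 in WT and 0.0595 in KO) and Ppm1d (0.157 and 0.0869).

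Trp53 itself (chr11:69580359-69591873) read 9.33, 10.02, 10.07, 10.15 and 10.5 in WT-NaCl3 and 10.1, 10.3, 10.35, 10.5 and 10.81 in WT-Dox3, which overlap. In KO-NaCl3 it read 9.09, 9.11, 10.06, 10.18 and 10.29, and in KO-Dox3 10.49, 10.61, 10.92, 10.98 and 11.05. Every KO-Dox3 mouse was above every KO-NaCl3 mouse, of which a pair was near 9.1. The change was 1.06 ± 0.28 in KO (2.09-fold, adjusted p = 0.00951) and 0.4 ± 0.28 in WT (adjusted p = 0.568), and the difference between these changes, 0.67, had a 95% interval of -0.14 to 1.47 (adjusted p = 0.822). Without KO-NaCl3 mouse 254 the adjusted p in KO was 0.0508, and by the methods' test 0.0828. Trp73, which encodes the p53 relative p73, stayed near background, with changes of -0.02 ± 0.04 averaged over genotypes.

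**Figure D2:**
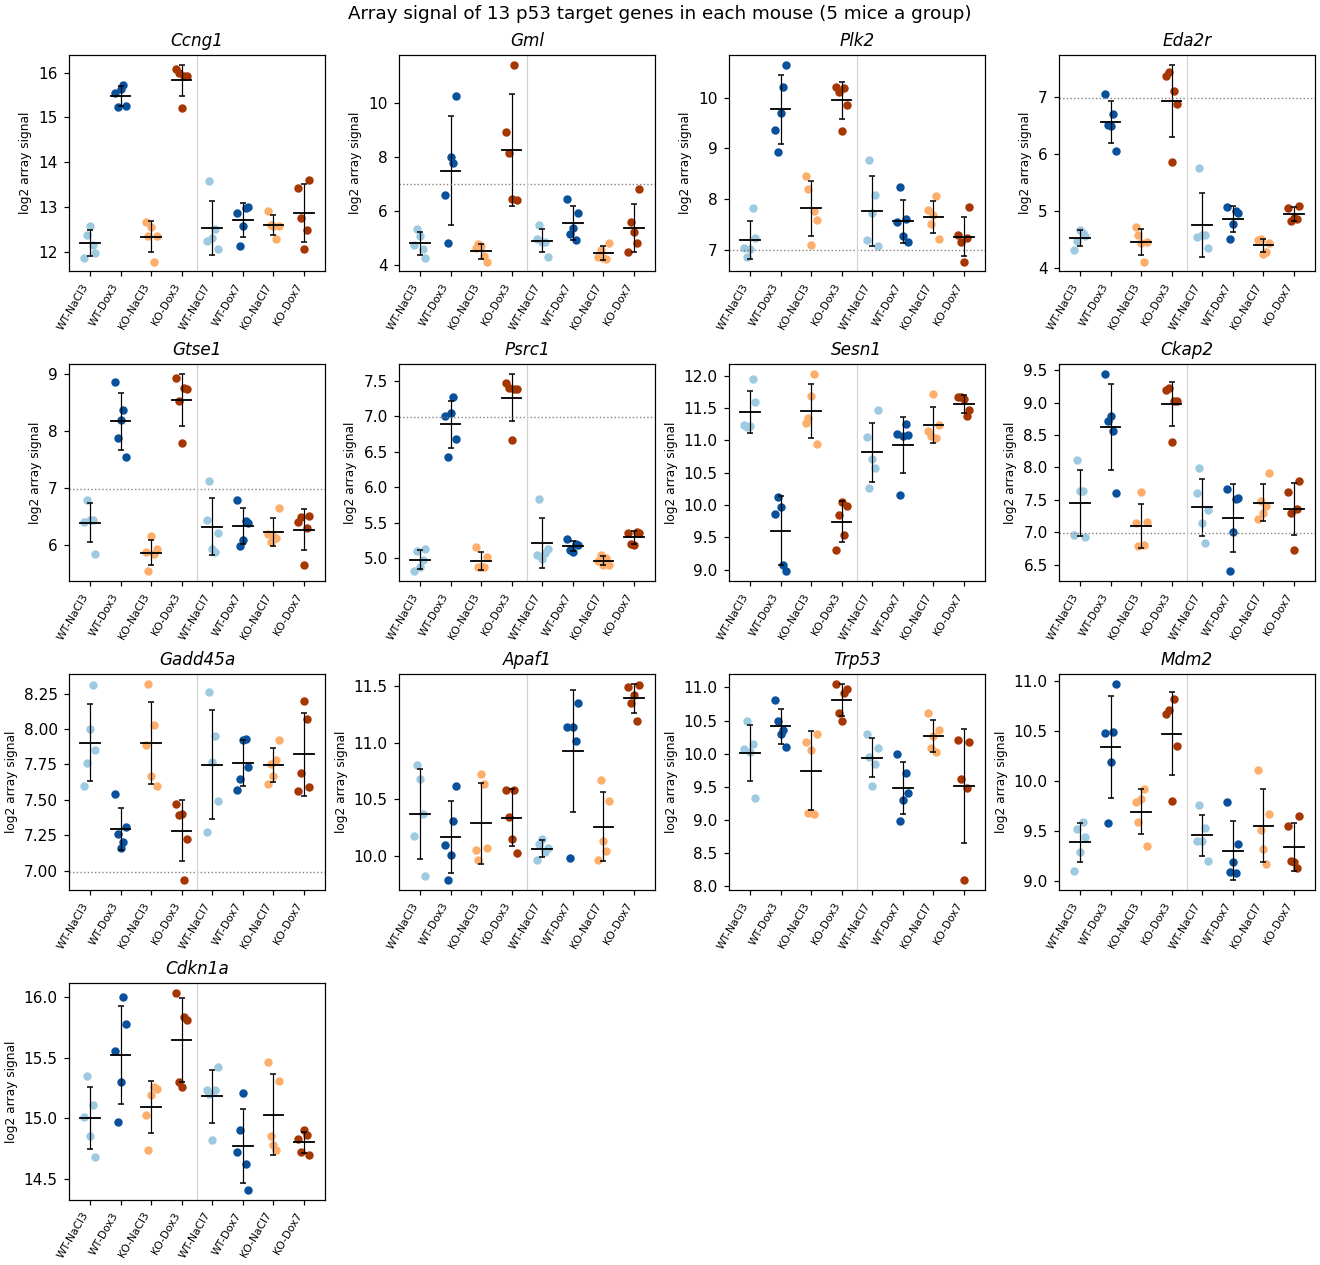
Log2 array signal (y axis) in each of 40 mice (points, 5 per group) for 13 p53 target genes in 8 groups (x axis), with group mean (bar) and SD (whiskers). The dotted line, where in range, is the highest background probe set (6.99), and the grey line parts day 3 from day 7. Ccng1, Plk2, Eda2r, Gtse1 and Psrc1 separate doxorubicin from saline fully at day 3, Sesn1 and Gadd45a lie lower, and Apaf1 is higher in the doxorubicin groups of day 7.

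Of the 8 genes of cell cycle and mitosis, 4 rose and 1 fell in WT (2.6% and 2.13% of all clusters), and 6 rose and 1 fell in KO (5.66% and 3.68%). Plk2 (chr13:110395044-110400844), a polo-like kinase of the centrosome cycle, read 6.87, 7.02, 7.03, 7.23 and 7.83 in WT-NaCl3 and 8.93, 9.37, 9.69, 10.22 and 10.65 in WT-Dox3. In KO-NaCl3 it read 7.09, 7.58, 7.76, 8.2 and 8.46, and in KO-Dox3 9.34, 9.86, 10.11, 10.2 and 10.22. No mouse overlapped, and the rise was 5.96-fold in WT (2.58 ± 0.3, adjusted p = 8.37e-07) and 4.37-fold in KO (2.13 ± 0.3, adjusted p = 3.6e-06). Its relative Plk3 had a change of 0.87 in KO (adjusted p = 0.0228) and 0.51 in WT (adjusted p = 0.346).

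Gtse1 (chr15:85859707-85876573) encodes a microtubule-bound protein of S and G2 phase that moves p53 out of the nucleus. Its signals were 5.85, 6.41, 6.45, 6.45 and 6.8 in WT-NaCl3 and 7.54, 7.87, 8.19, 8.37 and 8.86 in WT-Dox3. KO-NaCl3 mice read 5.55, 5.84, 5.89, 5.93 and 6.16, and KO-Dox3 mice 7.78, 8.52, 8.74, 8.75 and 8.92. Doxorubicin and saline mice did not overlap, and Gtse1 rose 3.42-fold in WT (1.77 ± 0.23, adjusted p = 5.28e-06) and 6.36-fold in KO (2.67 ± 0.23, adjusted p = 7.95e-10).

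Psrc1 (chr3:108383804-108388231) encodes a protein of the mitotic spindle. It read 4.82, 4.88, 4.98, 5.1 and 5.13 in WT-NaCl3 and 6.42, 6.68, 7, 7.05 and 7.27 in WT-Dox3. It read 4.87, 4.87, 4.88, 5.02 and 5.16 in KO-NaCl3 and 6.67, 7.38, 7.38, 7.4 and 7.47 in KO-Dox3. The groups were over 1 log2 unit apart, and the rise was 3.74-fold in WT (1.9 ± 0.14, adjusted p = 8.1e-11) and 4.92-fold in KO (2.3 ± 0.14, adjusted p = 2.39e-13).

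Ckap2 (chr8:22168152-22185819), a microtubule stabiliser of the mitotic spindle, read 6.92, 6.95, 7.63, 7.64 and 8.11 in WT-NaCl3 and 7.6, 8.56, 8.72, 8.8 and 9.44 in WT-Dox3. In KO-NaCl3 the values were 6.79, 6.8, 7.14, 7.15 and 7.62, and in KO-Dox3 8.39, 9.02, 9.03, 9.2 and 9.23. A single WT-Dox3 mouse reached into the saline range, and none in KO. The rise was 2.26-fold in WT (1.17 ± 0.28, adjusted p = 0.00708) and 3.67-fold in KO (1.87 ± 0.28, adjusted p = 7.34e-06). In the groups compared alone, the WT rise of Ckap2 had an adjusted p of 0.116, and by the methods' test 0.25.

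Since Gtse1, Psrc1 and Ckap2 act in dividing cells, a list of G2 and mitosis genes (10 of 12 measured) is given beside them. None of the 10 passed in WT (median change 0.035) and 8 rose in KO (median 1.095, where 5.66% of all clusters were called higher), among them Plk1 by 1.71 ± 0.33, Aurka by 1.25 ± 0.23, Cdc20 by 1.22 ± 0.24 and Cdk1 by 0.88 ± 0.19. In WT the same genes had changes of 0.34, 0.29, 0.17 and 0.31. The median difference of the 10 genes at day 3, KO minus WT, was -0.6 in saline and 0.405 after doxorubicin, and none passed in either. The mean signal of the list ran from 8.62 to 9.14 over KO-Dox3 mice and 7.33 to 8.37 over KO-NaCl3 mice, and from 7.36 to 9.33 in WT-Dox3 and 7.96 to 9.05 in WT-NaCl3. The part of this shift in the rise of Gtse1, Psrc1 and Ckap2 was not tested. WT-Dox3 mouse 244 had the lowest list mean, 7.36 against 8.3 to 9.33 in the other mice of its group, and was also the lowest of them in Gtse1 (7.54) and Ckap2 (7.6). It was not the lowest in Psrc1 (6.68), where mouse 146 was (6.42, with a list mean of 8.97).

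Cdkn1a (chr17:29090979-29100722) encodes p21, the inhibitor of cyclin-dependent kinases by which p53 halts the cycle. Its signals were 14.68, 14.85, 15.01, 15.11 and 15.35 in WT-NaCl3 and 14.97, 15.3, 15.55, 15.78 and 16 in WT-Dox3. They were 14.74, 15.03, 15.19, 15.24 and 15.26 in KO-NaCl3 and 15.26, 15.3, 15.81, 15.83 and 16.03 in KO-Dox3. Saline mice were already high on the scale of this probe set and the groups met or overlapped. The change was 1.43-fold in WT (0.52 ± 0.18, adjusted p = 0.0903) and 1.47-fold in KO (0.55 ± 0.18, adjusted p = 0.039), and 1.45-fold averaged over genotypes (adjusted p = 0.002). This call did not hold when quantile normalization was applied once more (0.35, adjusted p = 0.0746), and the call in KO was lost without any 1 of 5 of the 10 KO mice of day 3, mice 2, 236, 248, 168 and 182 (lowest change 0.46). The KO call was also lost in the groups compared alone (adjusted p = 0.079) and by the methods' test (0.147).

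Gadd45a (chr6:67035096-67037457), a stress sensor that inhibits Cdk1, went the other way. It read 7.6, 7.76, 7.85, 8 and 8.31 in WT-NaCl3 and 7.16, 7.2, 7.26, 7.31 and 7.54 in WT-Dox3. KO-NaCl3 mice read 7.6, 7.67, 7.89, 8.03 and 8.32, and KO-Dox3 mice 6.93, 7.22, 7.39, 7.4 and 7.47. Every doxorubicin mouse was below every saline mouse, and Gadd45a fell by 0.61 ± 0.16 on the log2 scale in WT (adjusted p = 0.0144) and by 0.62 ± 0.16 in KO (adjusted p = 0.0063). Without WT-NaCl3 mouse 170 the WT call was lost (-0.51, adjusted p = 0.0711), as it was in the groups compared alone (0.0559) and by the methods' test (0.121), and the KO call was lost by the methods' test (0.0737). Btg2, an antiproliferative gene, did not pass (-0.1 ± 0.13 averaged over genotypes).

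Of 10 genes of death receptors and apoptosis, 5 rose in WT (2.6% of all clusters) and 6 in KO (5.66%), and none fell. Eda2r (chrX:97333840-97377216), the receptor of ectodysplasin A2 in the TNF receptor family, read 4.32, 4.48, 4.57, 4.62 and 4.68 in WT-NaCl3 and 6.05, 6.49, 6.51, 6.7 and 7.06 in WT-Dox3. In KO-NaCl3 it read 4.12, 4.45, 4.46, 4.58 and 4.73, and in KO-Dox3 5.87, 6.87, 7.11, 7.36 and 7.44. The groups were more than 1 log2 unit apart, although most values were within the range of the background probe sets. Eda2r rose 4.08-fold in WT (2.03 ± 0.22, adjusted p = 2.15e-07) and 5.51-fold in KO (2.46 ± 0.22, adjusted p = 9.46e-10).

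The other death receptors moved less. Tnfrsf10b, the mouse TRAIL receptor, rose by 1.02 ± 0.2 in KO (adjusted p = 0.000391, but 0.102 by the methods' test) and had 0.43 ± 0.2 in WT (adjusted p = 0.282), and Fas had -0.38 ± 0.17 averaged over genotypes (adjusted p = 0.165). Within the cell, Aen, a nuclease of apoptosis, rose by 0.76 in WT and 0.83 in KO, Trp53inp1, a cofactor that helps p53 activate death genes, by 0.81 and 0.73, Phlda3, an inhibitor of Akt, by 0.43 and 0.59, and Ei24 by 0.34 and 0.56. The WT calls of Trp53inp1, Phlda3 and Ei24 were lost in the groups compared alone (adjusted p = 0.174, 0.0998 and 0.0602). Trp53inp1 and Phlda3 also lost them by the methods' test (0.31 and 0.144), and Ei24 with quantile normalization once more (0.111). Apaf1, the core of the apoptosome, was not raised at day 3 (-0.08 ± 0.14), nor did Perp, a junction protein needed for some p53 death responses, and Triap1, an inhibitor of apoptosis, pass (-0.02 ± 0.09 and -0.15 ± 0.13).

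Genes of DNA repair and nucleotide supply were split, with 2 of 5 raised in each genotype, where 2.6% of all clusters rose in WT and 5.66% in KO. Polk, a polymerase that copies past damaged bases, rose by 0.84 in WT and 1.09 in KO, and its groups did not overlap. Ercc5, the XPG nuclease of nucleotide excision repair, rose by 0.56 and 0.66. Its WT call was lost in the groups compared alone (adjusted p = 0.0679) and by the methods' test (0.134). The damage sensors of the same pathway did not pass, with -0.04 ± 0.07 for Ddb2 and -0.05 ± 0.05 for Xpc averaged over genotypes, and Rrm2b, the p53-induced ribonucleotide reductase subunit, had 0.03 ± 0.09.

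Sesn1 (chr10:41810574-41908436), a sestrin that restrains mTORC1 and limits oxidative stress, fell most of the 35 genes. Its signals were 11.2, 11.22, 11.23, 11.59 and 11.94 in WT-NaCl3 and 8.98, 9.08, 9.86, 9.97 and 10.12 in WT-Dox3. In KO-NaCl3 they were 10.94, 11.26, 11.35, 11.68 and 12.02, and in KO-Dox3 9.31, 9.54, 9.84, 9.99 and 10.04. All doxorubicin mice lay below all saline mice. Sesn1 fell by 1.83 ± 0.23 on the log2 scale in WT (3.57-fold lower, adjusted p = 2.73e-06) and by 1.71 ± 0.23 in KO (3.26-fold lower, adjusted p = 2e-06). Dcxr, a carbonyl reductase, had 0.51 in WT and rose by 0.65 in KO, and Fdxr, the mitochondrial ferredoxin reductase, had -0.02 ± 0.04 averaged over genotypes.

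Of the remaining targets, Gml (chr15:74813454-74818815), a membrane protein of the Ly6 family anchored by a lipid, varied widely between mice. It read 4.27, 4.59, 4.73, 5.09 and 5.34 in WT-NaCl3 and 4.81, 6.61, 7.78, 8.01 and 10.27 in WT-Dox3. KO-NaCl3 mice had 4.13, 4.33, 4.65, 4.69 and 4.78, and KO-Dox3 mice 6.42, 6.44, 8.13, 8.94 and 11.41. In each genotype 1 doxorubicin mouse stood well above the rest, and 1 WT-Dox3 mouse was inside the saline range. The rise was 6.46-fold in WT (2.69 ± 0.67, adjusted p = 0.0122) and 13.5-fold in KO (3.75 ± 0.67, adjusted p = 0.000139). All saline means were within the range of the background probe sets, so these folds are not exact and may be larger than measured. Without WT-Dox3 mouse 244, the highest, the WT change was 2 (adjusted p = 0.0743). The WT call was also lost in the groups compared alone (adjusted p = 0.133) and by the methods' test (0.282), and the KO call by the methods' test (0.0624). Zmat3, an RNA-binding protein that regulates splicing, rose by 1.18 ± 0.13 in WT and 1.43 ± 0.13 in KO, and Gdf15, a secreted stress cytokine, had 0.26 in WT and rose by 0.36 in KO, near background.

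**Figure D3:**
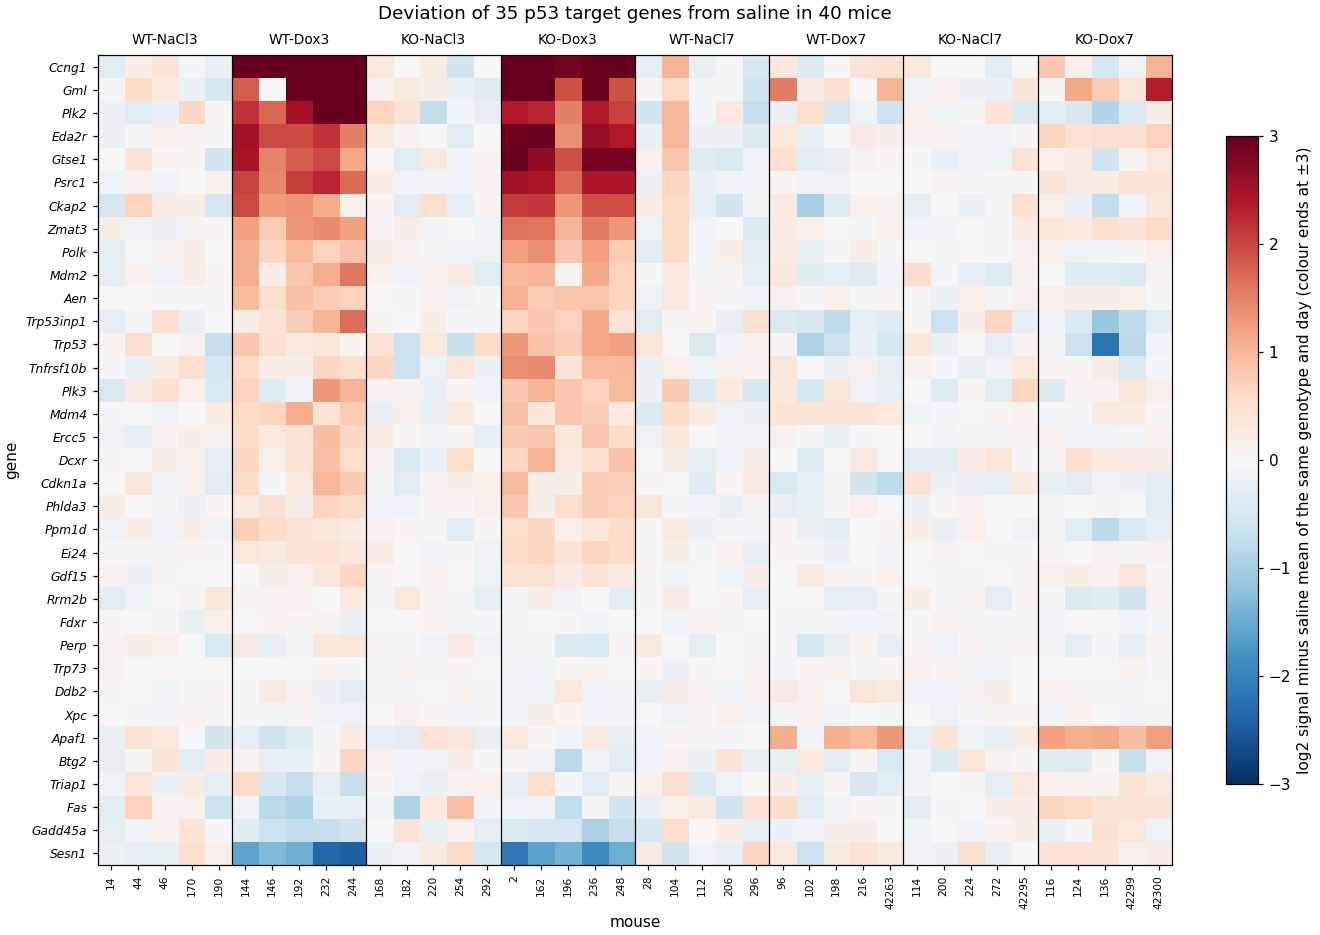
Deviation of the log2 signal from the saline mean of the same genotype and day (colour, red above and blue below, ending at ±3) for 35 p53 target genes (y axis) in 40 mice (x axis, by group and mouse number). The genes that rose are red in most of the 10 doxorubicin mice of day 3, Sesn1 and Gadd45a are blue there, Apaf1 is red in 9 of the 10 doxorubicin mice of day 7, and the saline mouse 104 of WT-NaCl7 shows red in the leading genes.

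Mice of 1 group differed in how far the genes moved together. The median deviation of the 35 genes from the saline mean was 0.23 to 0.61 over WT-Dox3 mice and 0.36 to 0.79 over KO-Dox3 mice, against -0.1 to 0.08 in WT-NaCl3 and -0.06 to 0.05 in KO-NaCl3. Between 16 and 23 genes were above the highest saline mouse in each WT-Dox3 mouse and 20 to 25 in each KO-Dox3 mouse. The same count was not taken over all clusters, so no share stands beside it. WT-Dox3 mouse 146 was the lowest of its group in 16 of the 35 genes (each other mouse in 2 to 10). KO-Dox3 mouse 196 was the lowest in 18 (each other mouse in 2 to 7). Whether these mice were low more in these genes than in other clusters was not tested. Leaving them out changed the count of genes that passed from 19 to 20 in WT, and in KO it stayed at 25. Some smaller rises did not hold without 1 mouse. In WT the call of Trp53inp1 was lost without mouse 232, 244, 14 or 170 (adjusted p up to 0.127), that of Phlda3 without mouse 232, 244 or 170 (up to 0.0679) and that of Ppm1d without mouse 144, 146, 14, 46 or 190 (up to 0.0909). In KO the call of Trp53inp1 was lost without mouse 162, 236, 168 or 254 (up to 0.0981), that of Plk3 without mouse 162, 248 or 220 (up to 0.053) and that of Ppm1d without mouse 162 or 254 (up to 0.0898). Cdkn1a (0.66, adjusted p = 0.0199) and Dcxr (0.61, 0.0257) passed in WT without mouse 146, and Gdf15 without mouse 144 (0.33, 0.0184).

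At day 7, averaged over genotypes, 0 of the 23 genes that rose at day 3 passed upward. By genotype, none of the 35 genes passed in WT (0.0182% of all clusters passed) and 1, Apaf1, rose in KO (0.318% of all were called higher). An unadjusted p under 0.05 in limma, in either direction, was reached by 4 of the 35 in WT, 8 in KO and 10 averaged over genotypes. Shares of all clusters at this unadjusted threshold are not given, so no response at day 7 is read from these counts. The median log2 change of the 35 genes was -0.03 in WT and 0.02 in KO. The doxorubicin change differed between days, averaged over genotypes, for 23 of the 35 genes: it was lower at day 7 for 20 (4.26% of all clusters) and higher for 3 (3.08%), which were Sesn1, Gadd45a and Apaf1. Ccng1 ran from 12.13 to 13.01 in WT-Dox7 and 12.08 to 13.61 in KO-Dox7, and its difference in change between days was -3.16 ± 0.25 (adjusted p = 1.42e-10). Sesn1 ran from 10.16 to 11.25 and from 11.37 to 11.67, a difference of 1.99 ± 0.23 (adjusted p = 4.76e-07).

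Apaf1 (chr10:90989311-91082770) had the opposite time course. Its protein binds cytochrome c released from mitochondria and activates caspase-9. In WT-NaCl7 it read 9.96, 10.03, 10.07, 10.1 and 10.15, and in WT-Dox7 9.98, 11.01, 11.14, 11.14 and 11.35. In KO-NaCl7 it read 9.96, 10.04, 10.13, 10.48 and 10.67, and in KO-Dox7 11.19, 11.35, 11.42, 11.49 and 11.51. All doxorubicin mice except WT-Dox7 mouse 102 were above all saline mice of day 7. Apaf1 rose 2.2-fold in KO (1.14 ± 0.2, adjusted p = 0.00266), its change in WT was 0.86 ± 0.2 (1.82-fold, adjusted p = 0.129), and averaged over genotypes it rose 2-fold (adjusted p = 8.35e-05, the only gene of the 35 called, where 0.923% of all clusters were called higher). Without mouse 102 the WT change was 1.1 (adjusted p = 0.00117). At day 3 its groups overlapped, from 9.78 to 10.8 in WT and 9.96 to 10.72 in KO.

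Without passing the test, a few further genes were free of overlap in KO at day 7. Eda2r, Psrc1, Zmat3, Fas and Apaf1 were higher in every KO-Dox7 mouse than in every KO-NaCl7 mouse (5 of 35, where 1.68% of all clusters were), and of these Apaf1 alone passed. Eda2r read 4.26 to 4.51 in KO-NaCl7 and 4.83 to 5.1 in KO-Dox7 (0.55 ± 0.22, adjusted p = 0.282), and Psrc1 4.9 to 5.05 and 5.19 to 5.37 (0.33 ± 0.14, adjusted p = 0.323). Zmat3 read 5.74 to 6.16 and 6.17 to 6.45 (0.42 ± 0.13, adjusted p = 0.135). In WT no gene of the 35 was free of overlap (0.986% of all were, upward). The remaining genes named above had day 7 changes between -0.75 (Trp53 in KO, adjusted p = 0.24) and 0.93 (Gml in KO, adjusted p = 0.619), none of which passed.

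The WT comparison of day 7 rests on a saline group with a mouse that stood apart. Mouse 104 of WT-NaCl7 was the highest of its group in 21 of the 35 genes, and each other mouse in 2 to 7. Of the 23 genes called higher at day 3 averaged over genotypes (7.39% of all clusters were so called), it was the highest in 17. Each other mouse was the highest in 0 to 4 of these. In the fit with array weights its array had the lowest weight of the group, 0.52 against 0.94 to 1.23. Whether it stood apart more in these genes than in other clusters was not tested. It read 13.58 for Ccng1 against 12.06 to 12.52 in the other mice of the group, 5.75 for Eda2r against 4.35 to 4.59, and 5.83 for Psrc1 against 4.99 to 5.13. With all saline mice, 1 to 6 genes were above the highest saline mouse in each WT-Dox7 mouse and 8 to 11 in each KO-Dox7 mouse, and without mouse 104 the WT range was 5 to 19. Without KO-NaCl7 mouse 42295 the KO range was 13 to 16. Such counts were not taken over all clusters, so no response at day 7 is read from these ranges. The WT changes without mouse 104 were 0.43 for Ccng1 (adjusted p = 0.571), 0.35 for Eda2r (adjusted p = 0.591) and 0.11 for Psrc1 (adjusted p = 0.853), and no gene passed.

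**Figure D4:**
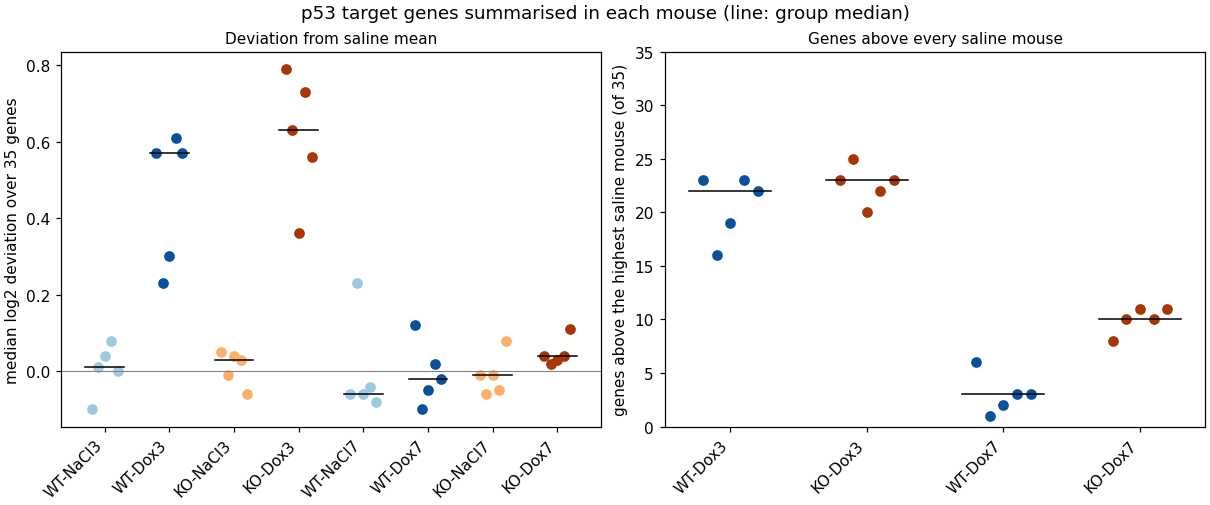
Left, the median log2 deviation of 35 p53 target genes from the saline mean of the same genotype and day (y axis) in each mouse of 8 groups (x axis). Right, the number of the 35 genes above the highest saline mouse (y axis) in each doxorubicin mouse. Lines are group medians. The day 3 doxorubicin mice lie between 0.23 and 0.79 on the left, and saline mouse 104 of WT-NaCl7 at 0.23 is level with the lowest of them.

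No difference between genotypes passed the test for any of the 35 genes. None passed between KO and WT in saline at day 3 (0.0258% of all clusters passed, 4 of the 35 had an unadjusted p under 0.05 in limma) or day 7 (0.0773%, 2 of the 35), or after doxorubicin at day 3 (0.0106%, 4 of the 35) or day 7 (0.00606%, 3 of the 35). The percentages are of clusters that passed after adjustment. Shares at an unadjusted p under 0.05 are not given, so no difference between genotypes is read from the counts at that threshold. The difference of the doxorubicin change between genotypes passed for no cluster on the array at either day (0%), with 3 of the 35 at an unadjusted p under 0.05 at day 3 and 0 at day 7. The largest of those 3 was Gtse1, whose change was greater in KO by 0.89 (95% interval 0.23 to 1.56, adjusted p = 0.75), followed by Tnfrsf10b with 0.59 (0.02 to 1.15) and Ei24 with 0.21 (0 to 0.43). In saline at day 3 Gtse1 was lower in KO by 0.52 (limma, adjusted p = 0.484), and after doxorubicin its means were 8.54 in KO and 8.17 in WT. For Ccng1 the difference was 0.2 with an interval of -0.51 to 0.91, for Cdkn1a 0.03 (-0.47 to 0.54) and for Sesn1 0.13 (-0.54 to 0.79). With 5 mice per group, differences of any size within these intervals remain possible. After doxorubicin at day 7, Fas read 9.55 to 9.78 in KO and 8.41 to 9.29 in WT (difference 0.87, 95% interval 0.37 to 1.36, adjusted p = 0.999), and Sesn1 was also higher in every KO mouse than in every WT mouse (0.63, adjusted p = 0.999), where 0.297% of all clusters were. Between days 7 and 3 in saline, no gene of the 35 passed in WT or KO (0% of all clusters).

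Other genes of the p53 pathway were compared as separate lists. Of 29 measured genes in a list of further p53 targets, 12 rose and 1 fell in WT at day 3 (2.6% and 2.13% of all clusters), and 10 rose and 2 fell in KO (5.66% and 3.68%), with median changes of 0.41 and 0.35. Ephx1, an epoxide hydrolase, rose by 3.52 ± 0.29 in WT and 4.03 ± 0.29 in KO, Thbs1, the matrix protein thrombospondin, by 2.73 ± 0.39 and 2.51 ± 0.39, Siva1, a proapoptotic protein, by 0.96 and 1.53, and Slc19a2, a thiamine transporter, by 1.13 and 1.18. At day 7 none passed in WT and 1 fell in KO (0.602% of all clusters were called lower), Kitl, the ligand of the receptor Kit. Of 18 measured regulators of p53, 1 fell in WT at day 3, near the share over all clusters (2.13%), and 4 rose and 4 fell in KO (5.66% and 3.68% of all). Hipk2, a kinase that phosphorylates p53, fell by 1.2 ± 0.16 in WT and 1.14 ± 0.16 in KO on the log2 scale, and in KO the checkpoint kinases Chek2, Atr and Chek1 rose by 1.07, 0.96 and 0.99.

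Markers of other cells moved at day 3 as well. Beside the calls below, 2.6% of all clusters were called higher and 2.13% lower in WT at day 3, and 5.66% and 3.68% in KO. Of 4 neutrophil genes, S100a8, S100a9 and Ly6g rose in WT and none passed in KO. The mean signal of the list was 4.61 to 7.83 in WT-Dox3, 4.28 to 4.46 in WT-NaCl3, 4.45 to 5.32 in KO-Dox3 and 4.13 to 4.35 in KO-NaCl3, and Mpo, a defining neutrophil gene, was at background in every group (3.47 to 3.9). Of 3 macrophage genes measured, Cd68 rose in both genotypes and Cd163 in KO, with list means of 7.31 to 8.6 in WT-Dox3 against 7 to 7.42 in WT-NaCl3, and 7.47 to 7.93 in KO-Dox3 against 6.53 to 7.27 in KO-NaCl3. Of 6 smooth muscle genes, Myh11, Des, Cnn1 and Actg2 fell in KO and none passed in WT, with list means of 12.41 to 13.23 in KO-Dox3 and 13.11 to 14.38 in KO-NaCl3, 12.5 to 13.62 in WT-Dox3 and 12.89 to 13.93 in WT-NaCl3. Of 6 stem cell and crypt genes, Lgr5 fell in both genotypes and Olfm4 and Smoc2 in WT, with list means of 7.77 to 8.63 in WT-Dox3 against 8.31 to 9.07 in WT-NaCl3, and 8.22 to 8.57 in KO-Dox3 against 8.19 to 9.08 in KO-NaCl3. Averaged over genotypes, Lgr5, Olfm4 and Smoc2 fell and Sox9 of the same list rose (7.39% of all clusters were called higher there). Of 8 enterocyte genes, Vil1 fell in WT and Alpi and Lct in KO, with list means of 18.31 to 18.55 in WT-Dox3 against 18.54 to 18.65 in WT-NaCl3, and 18.27 to 18.53 in KO-Dox3 against 18.49 to 18.99 in KO-NaCl3. In KO the Paneth cell gene Mmp7 (1 of 3) and the goblet cell gene Clca1 (1 of 5) rose, by 2 ± 0.65 and 2.59 ± 0.47. The median changes of these lists in KO were 0.89 and -0.13. List means in KO-Dox3 were 16.95 to 17.9 (Paneth) and 13.56 to 14.34 (goblet). KO-NaCl3 mouse 254 read 12.38 and 13.02, and the other mice of its group 16.61 to 17.85 and 13.49 to 13.91. The part of this mouse in the rises of Mmp7 and Clca1 was not tested. Of 3 adipocyte genes none passed in 1 genotype, and Adipoq and Plin1 fell averaged over genotypes. At day 7 in KO, beside the rise of Apaf1, the stem cell gene Lgr5 and the Paneth cell gene Ang4 fell (0.602% of all clusters were called lower). The part of these markers in the changes of the p53 target genes was not tested.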

How the data were processed

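Jejunal RNA of 40 mice was measured on the Affymetrix Mouse Transcriptome Array 1.0, with 1 array per mouse and 5 mice in each of 8 groups. The deposited values are log2 signals per transcript cluster, made by the authors with RMA in Affymetrix Expression Console per the submitters' processing notes, while in the study's methods the background was corrected by normexp and arrays were quantile normalized, both in limma. Versions were not given in the sources used here. Which of these was applied, and any probe filter, stays unknown for these values, and the log2 scale was checked against the authors' group averages (bi-weight log2 signals), with correlations of 0.9995 to 0.9997 across clusters. Fold changes and p-values of the authors' own comparisons were deposited too and were not used. Gene symbols and coordinates came from the annotation columns of the deposited tables, which name no build. All 35 measured genes overlapped the gene of the same symbol in RefSeq on GRCm38.p6, so coordinates are given as GRCm38.

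Of 72688 probe sets, 6732 controls were left out. The other 65956 clusters were each fitted with 8 group means in limma 3.58.1 in R 4.3.3 (lmFit and eBayes), and 15 comparisons were drawn from this fit. Benjamini-Hochberg adjustment ran over the 65956 p-values of each comparison, with a threshold of 0.05. Folds are 2 to the power of the log2 change. Comparisons of 1 genotype or day share their control mice with the averages over genotypes. The fit was tested on simulated data. Precision is limited by the number of arrays, and no batch was given in the sources used here. Mouse numbers differ in every group and the sample labels name no litter, so litters were not modelled and no mice were paired in the fit.

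Values in each mouse are given by rule for the 8 genes with the largest change averaged over genotypes at day 3 among those that passed, for genes that passed downward, for those that passed at day 7 averaged over genotypes, for any that passed between genotypes, and for Trp53, Mdm2 and Cdkn1a. The members, the other gene lists and the role groups were chosen with earlier results of these data known, and the genes named from the other lists after their values were seen. Alternatives were a fit of the groups compared alone, the methods' test (an unmoderated analysis of variance), only clusters above the median signal, only clusters with 1 symbol, eBayes with trend and robust, array weights (statmod 1.5.0), quantile normalization once more, centring each array on its median, the mean of a gene's clusters, and leaving out each mouse. The result of 1 list of cell type markers is not reported here. Counts of genes without overlap, or above the highest saline mouse, without 1 saline mouse were added after seeing the data. Promoter motifs were searched with Python 3.11.15 and pandas 2.3.3, and figures drawn with matplotlib 3.10.9.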

Additional observations from a re-analysis of the deposited data

Results flagged for a closer look

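In groups of 5, a highest or lowest mouse was set apart when its gap to the nearest other mouse exceeded 0.71 of the group's range. This held for 11 of 112 groups of values, where chance gives about 1 in 20. The values tested were those of the 13 genes given by mouse and the median deviation of the 35 genes.

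KO-Dox3 mouse 196 lay below the rest of its group in 3 genes that rose at day 3. It read 15.22 for Ccng1 (others 15.92 to 16.08), 6.67 for Psrc1 (others 7.38 to 7.47) and 8.39 for Ckap2 (others 9.02 to 9.23).

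WT-NaCl7 mouse 104, a saline mouse, lay above its group with 5.75 for Eda2r (others 4.35 to 4.59) and 5.83 for Psrc1 (others 4.99 to 5.13). Its median deviation over the 35 genes was 0.23 (others -0.08 to -0.04).

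WT-Dox7 mouse 102 lay below its group with 10.16 for Sesn1 (others 11.07 to 11.25) and 9.98 for Apaf1 (others 11.01 to 11.35). Gtse1 was low in KO-Dox7 mouse 136 (5.65, others 6.31 to 6.52) and high in KO-NaCl7 mouse 42295 (6.66, others 6.05 to 6.2). The median deviation of KO-Dox7 mouse 42300 was 0.11 (others 0.02 to 0.04).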

How the results depend on the processing

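Of 819 changes of the 13 genes given by mouse under alternatives other than leaving out a mouse, 794 kept direction and side of the threshold, 17 lost a call, 2 gained one and 6 reversed. With 1 mouse left out these numbers were 1518, 8, 2 and 32 of 1560. The reversals were of changes that did not pass: Gtse1 to -0.07 and Gadd45a to -0.08 (WT, day 7, quantile once more), Psrc1 to 0.03 (WT, day 7, array weights), and Gtse1 at day 7 to -0.03 (KO, centred), -0.0061 (average, quantile once more) and -0.004 (average, centred). Leaving out mice gave changes of -0.03 to 0.16 for Apaf1 in KO at day 3. At day 7 in WT it gave -0.37 to 0.05 for Plk2, -0.0015 to 0.35 for Eda2r, -0.1 to 0.21 for Gtse1, -0.1 to 0.11 for Psrc1, -0.02 to 0.31 for Sesn1, -0.3 to 0.04 for Ckap2 and -0.11 to 0.14 for Gadd45a. In KO at day 7 it gave -0.03 to 0.19 for Gtse1, -0.21 to 0.06 for Ckap2 and -0.02 to 0.14 for Gadd45a, and in the average -0.03 to 0.12 for Gtse1 and -0.02 to 0.11 for Gadd45a.

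The count of genes that passed at day 3 fell from 19 to 10 in WT both in the groups compared alone and by the methods' test, and from 25 to 16 in KO by the methods' test. At day 7 it went from 0 to 1 in WT (array weights, Apaf1), from 1 to 2 in KO (groups compared alone, Eda2r, and array weights, Zmat3) and from 1 to 2 in the average (clusters above the median signal, array weights, and quantile once more, each Trp53inp1 downward). Between genotypes in saline at day 7 it went from 0 to 1 (array weights, Mdm4). The groups compared alone have fewer samples to estimate the spread, and the cause of the other differences was not tested. With 1 mouse left out the counts at day 3 were 16 to 20 in WT, 22 to 25 in KO and 25 to 26 in the average. At day 7 they were 0 to 1, 1 to 1 and 1 to 2 (2 with Trp53inp1 downward without KO-Dox7 mouse 116 or KO-NaCl7 mouse 200, and with Zmat3 at 0.34, adjusted p = 0.0218, without WT-NaCl7 mouse 104), and between days 22 to 24. The counts between genotypes and of their interaction stayed at 0 to 0. No analysis paired by litter was possible because the sample labels name no litter. Mdm4 passed narrowly in the difference between days (-0.42, adjusted p = 0.0492) and lost this call without any 1 of 29 mice. Signals near background limit Eda2r, Phlda3, Gdf15, Aen, Rrm2b, Xpc, Triap1, Fdxr and Trp73 in all groups, and Gml, Psrc1, Gtse1 and Zmat3 in saline.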

Other observations

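In the further p53 targets, WT-NaCl7 mouse 104 was the highest of its group in 12 of 29 genes, and the other mice of the group in 9, 2, 3 and 3. It read 10.09 for Ephx1 (others 7.81 to 8.25), 7.21 for Siva1 (others 5.36 to 5.95), 8.07 for Slc19a2 (others 7.23 to 7.47) and 8.62 for Bax, a pore-forming protein of apoptosis (others 7.91 to 7.97). The mean of the 29 genes was 7.14 in this mouse and 6.76 to 6.89 in the others, and the mean of the G2 and mitosis genes 8.45 against 7.89 to 8.36. The genes named here were chosen after their values were seen.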
